A study of Caenorhabditis elegans with 9 samples.

Results

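The genes *lys-1* to *lys-10* of *Caenorhabditis elegans* encode the lysozymes of the protist type, so named because their relatives are found in amoebae. These 10 genes, of 17118 genes that the Affymetrix *C. elegans* Genome Array names by a probe set of their own, were followed through all 9 arrays of the series. Each had 1 probe set of its own, and 1 more probe set was shared by *lys-5* and *lys-6*, so 11 of the 22548 probe sets report on the family. RNA came from whole L1 larvae of 3 groups with 3 arrays each. *let-418(RNAi)* larvae had been fed bacteria making dsRNA of *let-418*, which encodes a Mi-2 chromatin remodelling ATPase, and *mep-1(RNAi)* larvae bacteria making dsRNA of *mep-1*, which encodes a zinc-finger protein that binds LET-418. The *gfp(RNAi)* larvae received dsRNA of a gene that the worm does not have. All 3 groups were wild-type N2 worms of the Bristol strain kept at 25 °C on HT115 bacteria, and RNAi began in their parents at the L4 stage. The larvae hatched without food, so they were starved at first, and were then fed for 3 h before collection.

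Lysozymes cut the peptidoglycan of bacterial cell walls. In *C. elegans* most are made by intestinal cells, where they serve both the digestion of bacterial food and the defence against swallowed pathogens. Their transcription is known to respond to the p38 MAP kinase cascade, to the DBL-1 pathway of the TGF-beta family and to insulin signalling through the transcription factor DAF-16, and members are known to be induced by different pathogens. The comparison of both knockdowns with *gfp(RNAi)* asked which genes the 2 proteins jointly keep on or off in young larvae.

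The values are MAS5 signals on a linear scale, brought here to 1 common trimmed mean per array. They are arbitrary units that depend on each probe set, so levels were compared between arrays and never between genes. Depth has no meaning for an array, and the 3 arrays per group limit the precision. The 25th percentile of the signals of an array was 19.02 to 23.4. The correlation of each array with the other arrays of its own group, averaged over these, lay between 0.951 and 0.959. The signal of *let-418* was not lower on the arrays labelled *let-418(RNAi)* (mean 1783 ± 431, SD) than on the *gfp(RNAi)* arrays (mean 915 ± 98.9, n = 3 each), a log2 fold change of 0.94 with an adjusted p of 0.0043 in limma. The brighter *mep-1* probe set averaged 1565 ± 57.5 where the label was *mep-1(RNAi)* and 1497 ± 79.0 where it was *gfp(RNAi)* (SD, n = 3 each, adjusted p = 0.777 in limma), and for its other probe set the adjusted p was 0.708. The depletion of either mRNA was therefore not visible here, and the groups are named by their labels. A probe set is said to have passed at an adjusted p under 0.05 in limma, and to be called when its fold change was also at least 2.

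*lys-2* and *lys-4* were called lower on the *let-418(RNAi)* arrays, and *lys-2*, *lys-4* and *lys-8* on the *mep-1(RNAi)* arrays. *lys-8* also passed on the *let-418(RNAi)* arrays and *lys-3* on the *mep-1(RNAi)* arrays, both lower and both below the 2-fold limit. No lysozyme gene passed as higher in either comparison, where 9.67% (*let-418(RNAi)*) and 10.4% (*mep-1(RNAi)*) of all probe sets did. Counted over the family, 2 of 10 genes were called lower on the *let-418(RNAi)* arrays, where 2.75% of all probe sets were, and 3 of 10 on the *mep-1(RNAi)* arrays, where 3.3% were. With no fold limit, 3 of 10 passed as lower on the *let-418(RNAi)* arrays, beside 5.75% of all probe sets, and 4 of 10 on the *mep-1(RNAi)* arrays, beside 6.49%. In the direction of a rise, 0 of 10 lysozyme genes were called where 6.54% and 6.78% of all probe sets were called on the *let-418(RNAi)* and *mep-1(RNAi)* arrays, while at an unadjusted p under 0.05 in limma 1 of 10 was higher on the *let-418(RNAi)* arrays (15.5% of all probe sets) and 0 of 10 on the *mep-1(RNAi)* arrays (16.7%). Lower at that limit were 3 of 10 (12.2%) and 5 of 10 (13%). The median log2 fold change of the 10 genes was -0.46 on the *let-418(RNAi)* arrays and -0.74 on the *mep-1(RNAi)* arrays, beside -0.03 and 0.02 for all probe sets. In both comparisons this median lies between the values of *lys-6* and *lys-10*, which had dim signals and did not pass. The 3 *gfp(RNAi)* arrays serve both comparisons. Since whole larvae were measured, fewer cells of a type and less RNA per cell cannot be told apart.

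**Figure D1:**
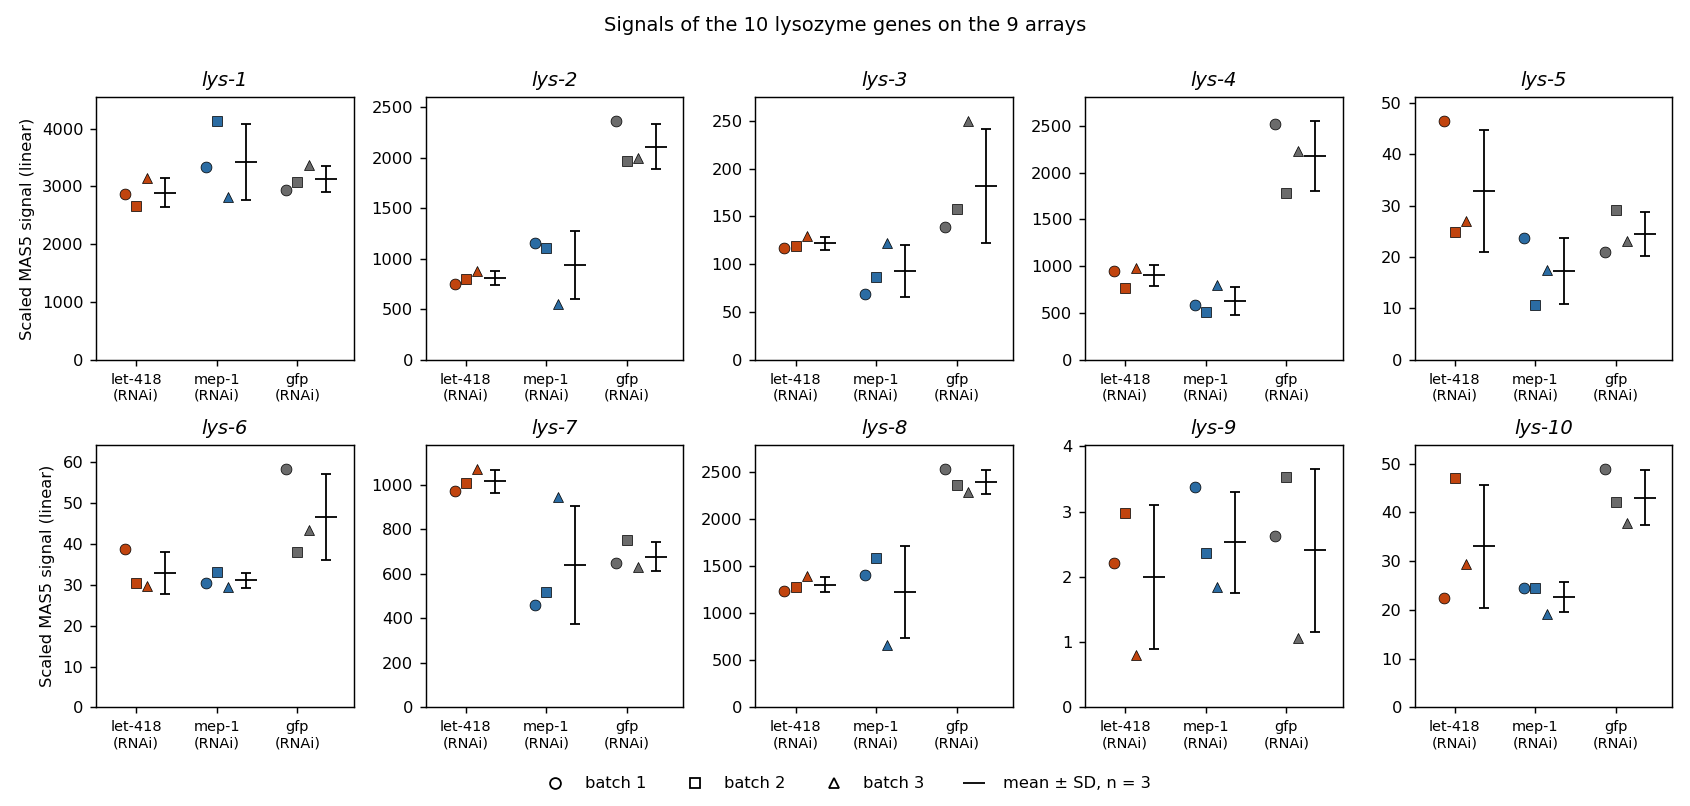
Scaled MAS5 signal (arbitrary units, linear axis from 0, a separate scale for each gene) of the 10 lysozyme genes on the *let-418(RNAi)*, *mep-1(RNAi)* and *gfp(RNAi)* arrays, with 1 point per array and the mean ± SD of 3 arrays. The points of both knockdowns lie below all 3 *gfp(RNAi)* points for *lys-2*, *lys-3*, *lys-4* and *lys-8*, while for *lys-7* the *let-418(RNAi)* points lie above them.

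*lys-4*, which encodes one of the less studied lysozymes, had the largest fall of the family on the *mep-1(RNAi)* arrays. Its signal was 954, 771 and 980 on the *let-418(RNAi)* arrays and 587, 509 and 795 on the *mep-1(RNAi)* arrays, against 2522, 1782 and 2227 on the *gfp(RNAi)* arrays. Every knockdown array was below every *gfp(RNAi)* array, and the 2 knockdown groups overlapped. The log2 fold change was -1.27 for *let-418(RNAi)* (standard error 0.19, adjusted p = 0.000849 from limma, 2.40-fold lower) and -1.80 for *mep-1(RNAi)* (standard error 0.19, adjusted p = 5.6e-05, 3.48-fold lower). The labels number the arrays of each group as batch 1 to 3, without stating whether a batch was handled together across groups. Between arrays of the same number the log2 fold change was -1.40, -1.21 and -1.18 for *let-418(RNAi)* and -2.10, -1.81 and -1.49 for *mep-1(RNAi)*. *lys-4* was called in both comparisons under every alternative in which it was tested, the methods' t-test included.

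*lys-2*, a gene known to be induced by *Pseudomonas aeruginosa*, had signals of 747, 800 and 883 on the *let-418(RNAi)* arrays (810 ± 68.6, SD, n = 3). They were 1162, 1109 and 555 on the *mep-1(RNAi)* arrays (942 ± 336), while the *gfp(RNAi)* arrays gave 2364, 1972 and 1994 (2110 ± 220). The knockdown arrays were again all below the *gfp(RNAi)* arrays, but the *mep-1(RNAi)* arrays were spread, with replicate 3 at less than the signal of any other array. The log2 fold change was -1.38 for *let-418(RNAi)* (standard error 0.24, adjusted p = 0.00234 from limma, 2.60-fold lower) and -1.23 for *mep-1(RNAi)* (standard error 0.24, adjusted p = 0.00443, 2.35-fold lower). Without *mep-1(RNAi)* replicate 3 the *mep-1(RNAi)* value was -0.89, which passed (adjusted p = 0.0025) but stayed below the 2-fold limit. It did not pass by the methods' t-test after Benjamini-Hochberg adjustment (adjusted p = 0.145).

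*lys-8*, known as a target of the DBL-1 pathway and for induction by *Serratia marcescens*, also had its lowest signal on *mep-1(RNAi)* replicate 3 and its highest on *gfp(RNAi)* replicate 1. Its signal was 1236, 1282 and 1394 on the *let-418(RNAi)* arrays and 1403, 1590 and 666 on the *mep-1(RNAi)* arrays, against 2535, 2357 and 2284 on the *gfp(RNAi)* arrays. Neither knockdown overlapped with *gfp(RNAi)*. The log2 fold change was -0.88 for *let-418(RNAi)* (95% interval -1.45 to -0.30, adjusted p = 0.0427 from limma, 1.84-fold lower) and -1.07 for *mep-1(RNAi)* (adjusted p = 0.0158, 2.09-fold lower). For *let-418(RNAi)* the adjusted p was 0.0768 to 0.114 when any 1 of the *let-418(RNAi)* or *gfp(RNAi)* arrays was left out, and was also over 0.05 with quantile normalization (adjusted p = 0.0626), with unscaled signals (0.0605) and without the intensity trend (0.113). In limma it was 0.00187 with only the 6 arrays compared and 0.000832 without *mep-1(RNAi)* replicate 3. The methods' t-test after Benjamini-Hochberg adjustment gave 0.0118 for *let-418(RNAi)* and 0.215 for *mep-1(RNAi)*. For *mep-1(RNAi)*, leaving out replicate 3 gave -0.68, which passed (adjusted p = 0.00877) but was below the 2-fold limit, and no intensity trend an adjusted p of 0.0586.

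*lys-3* lies beside *lys-2* and *lys-1* on chromosome V and had a moderate signal, at the 53rd percentile of all probe sets by its mean. It was 116.9, 118.7 and 129.8 on the *let-418(RNAi)* arrays and 69.3, 86.5 and 123 on the *mep-1(RNAi)* arrays, against 139, 157 and 250 on the *gfp(RNAi)* arrays, with no overlap between either knockdown and *gfp(RNAi)*. The fall passed for *mep-1(RNAi)* (log2 fold change -0.96, standard error 0.27, adjusted p = 0.0288 from limma, 1.95-fold lower) and not for *let-418(RNAi)* (-0.53, 95% interval -1.12 to 0.05, adjusted p = 0.224). The pairs of arrays with the same batch number gave -1.0, -0.86 and -1.03 for *mep-1(RNAi)*, a narrow range, and -0.25, -0.41 and -0.94 for *let-418(RNAi)*, where the pair numbered 3 differed most. The adjusted p for *mep-1(RNAi)* was over 0.05 with unscaled signals (0.0735), without the intensity trend (0.0605) and with only the 6 arrays compared (0.0609), and also without *mep-1(RNAi)* replicate 1 (0.0961) or 2 (0.0839) or *gfp(RNAi)* replicate 2 (0.0555) or 3 (0.0963).

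**Figure D2:**
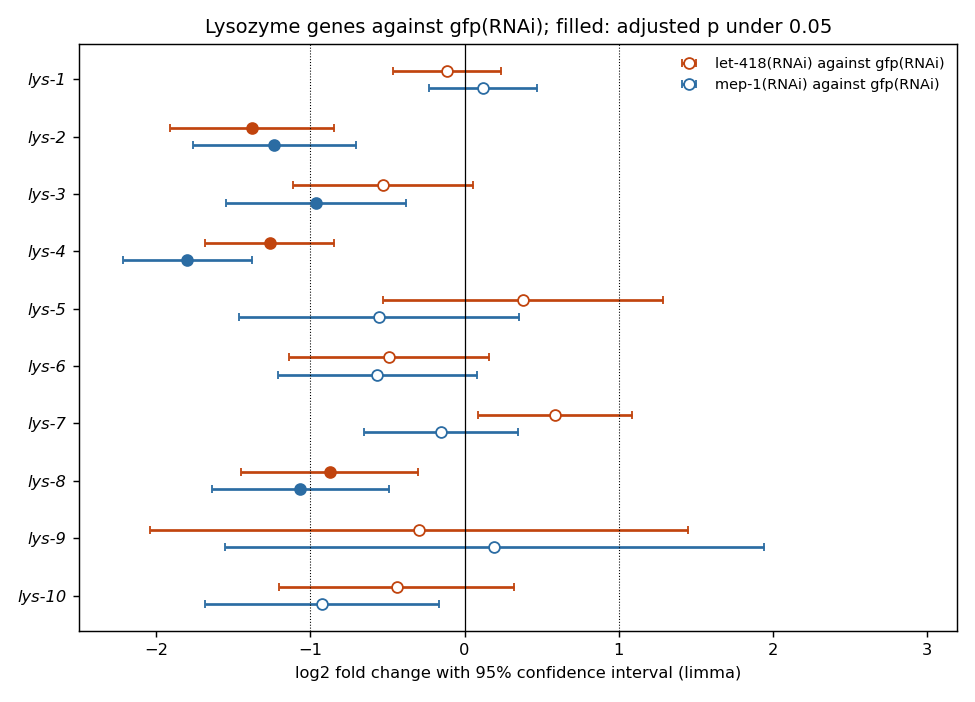
Log2 fold change of each lysozyme gene for *let-418(RNAi)* (upper point of a pair) and *mep-1(RNAi)* (lower point) against *gfp(RNAi)*, with 95% confidence intervals from limma and dotted lines at the 2-fold limit. Filled points passed at an adjusted p under 0.05: *lys-2*, *lys-4* and *lys-8* in both comparisons and *lys-3* for *mep-1(RNAi)*, all to the left of 0.

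*lys-7* went the other way in 1 of the knockdowns. It is a lysozyme gene known as a target of DAF-16 that worms need to withstand several bacterial pathogens. Its signal was 971, 1006 and 1074 on the *let-418(RNAi)* arrays and 458, 517 and 946 on the *mep-1(RNAi)* arrays, against 648, 752 and 632 on the *gfp(RNAi)* arrays. All *let-418(RNAi)* arrays were above all others, while the *mep-1(RNAi)* arrays lay on both sides of the *gfp(RNAi)* arrays, with replicate 3 apart from the other two. The log2 fold change was 0.59 for *let-418(RNAi)* (95% interval 0.09 to 1.09), an unadjusted p of 0.0251 in limma that became an adjusted p of 0.114, so the gene did not pass. With only the 6 arrays compared the adjusted p was 0.0166, and without *mep-1(RNAi)* replicate 3, which enters the estimate of the spread, it was 0.0107. By the methods' t-test after Benjamini-Hochberg adjustment it was 0.041. For *mep-1(RNAi)* the log2 fold change was -0.15 (95% interval -0.65 to 0.35, adjusted p = 0.72), and -0.47 without replicate 3.

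*lys-1*, a gene known to be induced by *S. marcescens*, had a signal at the 97.4th percentile of all probe sets and a small difference in either knockdown. It was 2866, 2664 and 3154 on the *let-418(RNAi)* arrays and 3330, 4132 and 2822 on the *mep-1(RNAi)* arrays, against 2932, 3070 and 3373 on the *gfp(RNAi)* arrays. The groups overlapped. The 95% intervals of the log2 fold change ran from -0.46 to 0.24 for *let-418(RNAi)* and from -0.23 to 0.47 for *mep-1(RNAi)* (limma, adjusted p of 0.716 and of 0.688). These bounds lie inside the 2-fold limit in both directions, and the log2 fold changes of *lys-2*, its neighbour, lie outside both intervals.

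The other 4 genes were dim, at the 33.6th percentile or lower by their mean signal. *lys-10* was at 22.5, 47.0 and 29.5 on the *let-418(RNAi)* arrays and 24.5, 24.4 and 19.2 on the *mep-1(RNAi)* arrays, against 48.98, 42.1 and 37.9 on the *gfp(RNAi)* arrays, so that the *mep-1(RNAi)* arrays did not overlap with *gfp(RNAi)*. Its log2 fold change of -0.92 for *mep-1(RNAi)* had a 95% interval of -1.69 to -0.16 and an adjusted p of 0.0956 from limma. With quantile normalization *lys-10* was called (-1.08, adjusted p = 0.0385). For *let-418(RNAi)* the value was -0.44 (adjusted p = 0.464).

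*lys-5* and *lys-6* lie beside *lys-4* on chromosome IV. *lys-6* was at 38.8, 30.4 and 29.6 on the *let-418(RNAi)* arrays and 30.5, 33.2 and 29.5 on the *mep-1(RNAi)* arrays, against 58.4, 38.1 and 43.4 on the *gfp(RNAi)* arrays (log2 fold change -0.49 with adjusted p = 0.325 for *let-418(RNAi)*, and -0.57 with 0.233 for *mep-1(RNAi)*, limma). *lys-5* was at 46.4, 25.0 and 26.9 on the *let-418(RNAi)* arrays and 23.7, 10.8 and 17.5 on the *mep-1(RNAi)* arrays, against 20.9, 29.2 and 23.1 on the *gfp(RNAi)* arrays (0.38 with adjusted p = 0.615, and -0.55 with 0.423). The *lys-6* values of *mep-1(RNAi)* did not overlap with those of *gfp(RNAi)*, and the *lys-5* values did. The probe set that both genes share gave 50.5, 27.4 and 39.9 on the *let-418(RNAi)* arrays, 19.9, 15.8 and 22.3 on the *mep-1(RNAi)* arrays and 24.3, 7.38 and 33.1 on the *gfp(RNAi)* arrays. Its log2 fold change was 1.07 for *let-418(RNAi)* (adjusted p = 0.217) and 0.08 for *mep-1(RNAi)* (0.946), the first in the direction of *lys-5* and not of *lys-6*. *lys-9* was at 0.806 to 2.98 on the *let-418(RNAi)* arrays, 1.85 to 3.37 on the *mep-1(RNAi)* arrays and 1.06 to 3.53 on the *gfp(RNAi)* arrays, all far below the 25th percentile of the arrays, where MAS5 signals have no dependable order. Its log2 fold change of -0.30 for *let-418(RNAi)* (adjusted p = 0.858) and that of 0.19 for *mep-1(RNAi)* (0.907) therefore carry no dependable sign.

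Over the family, groups of arrays that did not overlap were counted without a model. Lower on the *let-418(RNAi)* arrays were 4 of 10 genes (*lys-2*, *lys-3*, *lys-4* and *lys-8*), beside 15.9% of all probe sets, and higher was 1 of 10 (*lys-7*), beside 17.9%. Lower on the *mep-1(RNAi)* arrays were 6 of 10 (the same genes as for *let-418(RNAi)* with *lys-6* and *lys-10*), beside 15.1% of all probe sets, and higher were 0 of 10, beside 18.6%.

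Set directly against each other, *mep-1(RNAi)* and *let-418(RNAi)* arrays gave 0 of 10 lysozyme genes called in either direction. Over the array 1 probe set was called lower, which is 0.00443%, and 0 higher. At an unadjusted p under 0.05 in limma, 3 of 10 lysozyme genes were lower on the *mep-1(RNAi)* arrays (*lys-4*, *lys-5* and *lys-7*), beside 2.7% of all probe sets, and 0 of 10 higher, beside 2.91%. The methods' t-test after Benjamini-Hochberg adjustment also called 0. The log2 difference, *mep-1(RNAi)* minus *let-418(RNAi)*, was -0.53 for *lys-4* (95% interval -0.95 to -0.11, adjusted p = 0.802), -0.94 for *lys-5* (standard error 0.41, adjusted p = 0.874) and -0.74 for *lys-7* (95% interval -1.24 to -0.24, adjusted p = 0.735). For *lys-2* it was 0.15 with a 95% interval of -0.38 to 0.68, so that a difference of up to 0.68 in size is within the error. Without a model, groups that did not overlap were 2 of 10 lower (*lys-5* and *lys-7*), beside 4.84% of all probe sets, and 0 of 10 higher, beside 6.68%.

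The *lys-7* difference rests on how 1 array is treated. Between arrays numbered batch 1 and 2 it was -1.08 and -0.96, and between those numbered 3 it was -0.18. Without *mep-1(RNAi)* replicate 3 it was -1.06 with an adjusted p of 0.0358, and *lys-7* was then called. It was not called when any other array was left out.

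*mep-1(RNAi)* replicate 3 lay apart from the other *mep-1(RNAi)* arrays for *lys-2*, *lys-7* and *lys-8*. Among these arrays it was the lowest for *lys-1*, *lys-2*, *lys-6*, *lys-8*, *lys-9* and *lys-10* and the highest for *lys-3*, *lys-4* and *lys-7*. Of any 3 arrays 1 is the lowest and 1 the highest, so these ranks alone do not set it apart. Its average correlation with the other arrays of its group over all probe sets was 0.952, within the range of the other arrays. Genes outside the family could differ there too, such as the metallothionein gene *mtl-2*, at 152 on replicate 3 against 614 and 552 on the other *mep-1(RNAi)* arrays. What set replicate 3 apart for these genes was not tested.

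Genes that lie side by side did not all receive the same calls. *lys-1*, *lys-2* and *lys-3* have no other coding gene between them on chromosome V, and *lys-4*, *lys-5* and *lys-6* none between them on chromosome IV, in the RefSeq annotation of WBcel235. In the first cluster *lys-2* was called in both comparisons, *lys-3* passed in 1 and *lys-1* in 0. In the second *lys-4* was called in both and *lys-5* and *lys-6* in 0. Since *lys-5* and *lys-6* are dim, their lack of calls cannot show whether they moved with *lys-4*. *lys-7* and *lys-8* lie alone on chromosomes V and II, *lys-9* and *lys-10* on I and IV. Probe sets of close relatives can share probes with each other, and those of *lys-2*, *lys-3*, *lys-4*, *lys-6* and *lys-7* carry the manufacturer's mark for probes that match more than 1 transcript, so signals of these may be mixed.

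Across the 9 arrays the log2 signals of *lys-2* and *lys-8*, on different chromosomes, had a Pearson r of 0.954, higher than any other pair of the family. For *lys-3* and *lys-4* r was 0.824, for *lys-4* and *lys-6* 0.819, for *lys-2* and *lys-4* 0.742 and for *lys-1* and *lys-7* -0.709. For *lys-4* and *lys-7* it was 0.07. These are descriptions over 9 arrays in 3 groups, so a difference that 2 genes share between groups is part of r. Among the 11090 probe sets with a mean signal of at least 100, those most like *lys-2* were of *T16G12.1* (r = 0.989), *irg-4*, an infection response gene (r = 0.985), and *R07E3.1* (r = 0.984). In *let-418(RNAi)* larvae the log2 fold changes of these 3 genes were -2.24, -3.21 and -1.21, and in *mep-1(RNAi)* larvae they were -1.93, -2.77 and -1.05. Most like *lys-4* were *F54B8.4* (r = 0.984), *gst-40*, a glutathione transferase gene (r = 0.984), and *lmp-2* (r = 0.982). Most like *lys-8* were *eri-6* (r = 0.984), which encodes part of a helicase of the endogenous RNAi machinery, *W02D3.4* (r = 0.980) and *fkb-5* (r = 0.967).

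**Figure D3:**
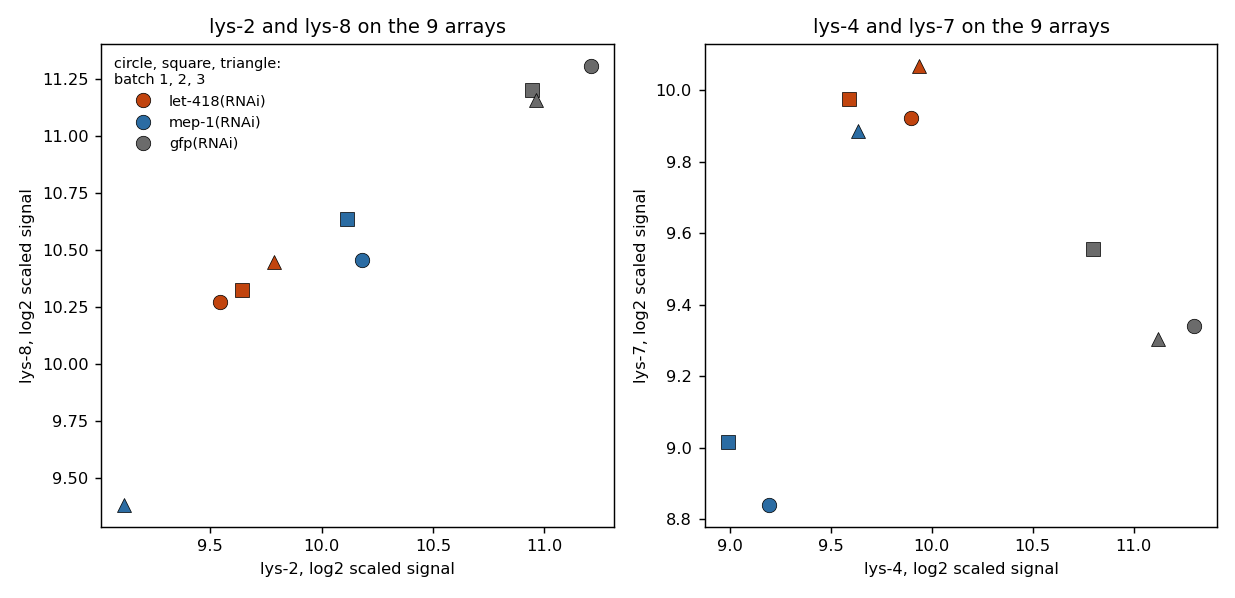
Log2 scaled signal of *lys-8* against that of *lys-2* (left) and of *lys-7* against that of *lys-4* (right), with 1 point per array, coloured by RNAi group and shaped by batch number. On the left the 9 points lie along a line (r = 0.954) with *mep-1(RNAi)* replicate 3 at the low end, and on the right the 3 groups are spread with no common line (r = 0.07).

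The pathways known to act on lysozyme genes are given by counts, to be read beside the 9.67% of all probe sets that passed as higher and 5.75% as lower on the *let-418(RNAi)* arrays, and the 10.4% and 6.49% on the *mep-1(RNAi)* arrays. Medians are of log2 fold changes, beside -0.03 (*let-418(RNAi)*) and 0.02 (*mep-1(RNAi)*) for all probe sets. Of the p38 MAP kinase list, 6 of 7 genes were measured, and 3 passed as lower on the *let-418(RNAi)* arrays and 2 on the *mep-1(RNAi)* arrays, with 0 higher in both (medians -0.39 and -0.51). *sek-1*, the MAP kinase kinase of the cascade, fell in both (log2 fold change -0.61 with adjusted p = 0.0223 in *let-418(RNAi)* and -0.86 with 0.00314 in *mep-1(RNAi)*, limma), as did *atf-7*, a transcription factor under it (-0.77 with 0.017, and -0.65 with 0.0362). *tir-1*, the adaptor at its top, fell by 0.53 for *let-418(RNAi)* (adjusted p = 0.0283) and had -0.38 for *mep-1(RNAi)* (adjusted p = 0.0984). The log2 fold change of *pmk-1*, the p38 kinase itself, was 0.08 and -0.10 and did not pass. The probe set of *atf-7* carries the manufacturer's mark for probes that can match other sequences, so its signal may be mixed.

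Of 10 measured DBL-1 pathway genes (11 listed), 3 passed as higher and 1 as lower in each knockdown (medians 0.15 and 0.13). *sma-4*, a co-Smad gene, rose by 1.38 on the log2 scale for *let-418(RNAi)* (adjusted p = 0.000117 in limma) and by 1.47 for *mep-1(RNAi)* (adjusted p = 6.63e-05). *sma-6*, the type I receptor gene, rose by 1.05 and 0.93, and the Smad gene *sma-3* by 0.64 and 0.96, all with an adjusted p of 0.00792 or less. *lon-1*, a gene that the pathway is known to repress, fell, with -0.87 and -0.72 (adjusted p = 0.00752 and 0.0198). *dbl-1*, the ligand gene, had 0.17 and 0.25 and did not pass.

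Of the 10 insulin pathway genes, 1 passed as higher and 1 as lower on the *let-418(RNAi)* arrays, and 1 and 4 on the *mep-1(RNAi)* arrays (medians -0.23 and -0.09). The *let-418(RNAi)* counts are close to the shares over all probe sets. *daf-16*, the FOXO factor gene, rose by 0.60 for *let-418(RNAi)* and 0.57 for *mep-1(RNAi)* (limma, adjusted p of 0.0305 and of 0.0348), and the kinase gene *pdk-1* fell, with -0.64 (0.0252) and -0.77 (0.00852). For *mep-1(RNAi)* the kinase genes *akt-1* (-0.71, adjusted p = 0.00706) and *akt-2* (-1.32, adjusted p = 0.0152) and the insulin receptor substrate gene *ist-1* (-0.77, adjusted p = 0.00154) also fell.

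Of 13 measured transcription factors and regulators of intestine and defence (14 listed), 3 passed as higher and 2 as lower on the *let-418(RNAi)* arrays and 2 and 3 on the *mep-1(RNAi)* arrays (medians -0.19 and -0.36). *elt-2*, the main GATA factor gene of the intestine, had signals of 407, 447 and 523 on the *let-418(RNAi)* arrays and 426, 452 and 651 on the *mep-1(RNAi)* arrays, against 236, 181 and 164 on the *gfp(RNAi)* arrays. This was a rise of 1.25 for *let-418(RNAi)* (adjusted p = 0.00127 in limma) and 1.39 for *mep-1(RNAi)* (adjusted p = 0.000582) in log2 units, opposite in sign to *lys-2* and *lys-4*. *bar-1*, a beta-catenin gene, also rose (0.89 with adjusted p = 0.0036, and 0.95 with 0.00217). *zip-2*, a bZIP factor of the pathogen response, fell in both knockdowns (-0.69 with adjusted p = 0.0185, and -0.88 with 0.00461), as did *fshr-1*, a receptor gene of innate immunity (-0.85 with 0.00322, and -0.80 with 0.00437).

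The other antimicrobial families are given by the same counts, to be read beside the same shares over all probe sets. In a short list the few genes that passed cannot show a direction of the family. Of the 6 invertebrate-type lysozyme genes, an unrelated family with the same enzyme activity, 1 passed as lower in each comparison and 0 as higher (medians -0.04 and -0.14). This was *ilys-5*, with 224, 197 and 268 on the *let-418(RNAi)* arrays and 103, 89.7 and 51.0 on the *mep-1(RNAi)* arrays, against 1718, 967 and 630 on the *gfp(RNAi)* arrays. Its log2 fold change was -2.16 for *let-418(RNAi)* (adjusted p = 0.00125 in limma) and -3.71 for *mep-1(RNAi)* (adjusted p = 1.93e-05), values below those of all 10 *lys* genes. The probe set of *ilys-5* carries the manufacturer's mark for probes that match more than 1 transcript, so its signal may be mixed. *ilys-4*, with 785 to 1098 on the *let-418(RNAi)* arrays, 726 to 1023 on the *mep-1(RNAi)* arrays and 753 to 1038 on the *gfp(RNAi)* arrays, had log2 fold changes of 0.02 and -0.05. Of 15 measured saposin-like genes, whose proteins can permeabilise bacterial membranes, 1 passed as higher and 0 as lower on the *let-418(RNAi)* arrays and 2 and 1 on the *mep-1(RNAi)* arrays (medians -0.15 and -0.16). Their largest rise was that of *spp-18*, at 2139, 1447 and 1885 on the *let-418(RNAi)* arrays and 1520, 1443 and 1397 on the *mep-1(RNAi)* arrays, against 510, 338 and 232 on the *gfp(RNAi)* arrays (2.40 with adjusted p = 4.88e-05, and 2.09 with 0.000128, in log2 units). For *mep-1(RNAi)*, *spp-7* also rose (1.35, adjusted p = 0.0149) and *spp-16* fell (-1.09, adjusted p = 0.0364).

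Of 5 measured antibacterial factor genes, 0 passed on the *let-418(RNAi)* arrays and 1 on the *mep-1(RNAi)* arrays, where *abf-5* was lower (-0.84, adjusted p = 0.0194 from limma; medians of the list -0.55 and 0.11). Among 15 measured caenacin and related peptide genes 2 passed as higher and 0 as lower on the *let-418(RNAi)* arrays, and 1 and 2 on the *mep-1(RNAi)* arrays (medians of the list 0.11 and -0.36). Lower on the latter were *cnc-6* (-2.68, adjusted p = 0.0134) and the epidermal peptide gene *nlp-29* (-1.24, adjusted p = 0.0275). The *cnc-6* signals there were 12.2, 5.56 and 46.0, and the first 2 lie below the 25th percentile of the arrays. The peptide gene *nlp-27* was higher in both (0.94 with adjusted p = 0.0285, and 0.83 with 0.0467), and *cnc-7* was higher for *let-418(RNAi)* (2.78, adjusted p = 0.0386) from mean signals of 8.91 against 1.19, both below the 25th percentile of the arrays. The probe sets of *nlp-27* and *nlp-29* carry the manufacturer's mark for probes that can match other sequences, so their signals may be mixed. Of 4 measured thaumatin-like genes 0 passed in either (medians 0.23 and 0.27). Of 220 C-type lectin genes 15 passed as higher and 31 as lower on the *let-418(RNAi)* arrays and 19 and 25 on the *mep-1(RNAi)* arrays (medians -0.28 and -0.06). The higher counts were below the shares over all probe sets, and the lower counts were above them. The 31 chitinase and chitinase-like genes passed as higher only, 5 on the *let-418(RNAi)* arrays and 6 on the *mep-1(RNAi)* arrays (medians 0.54 and 0.47).

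**Figure D4:**
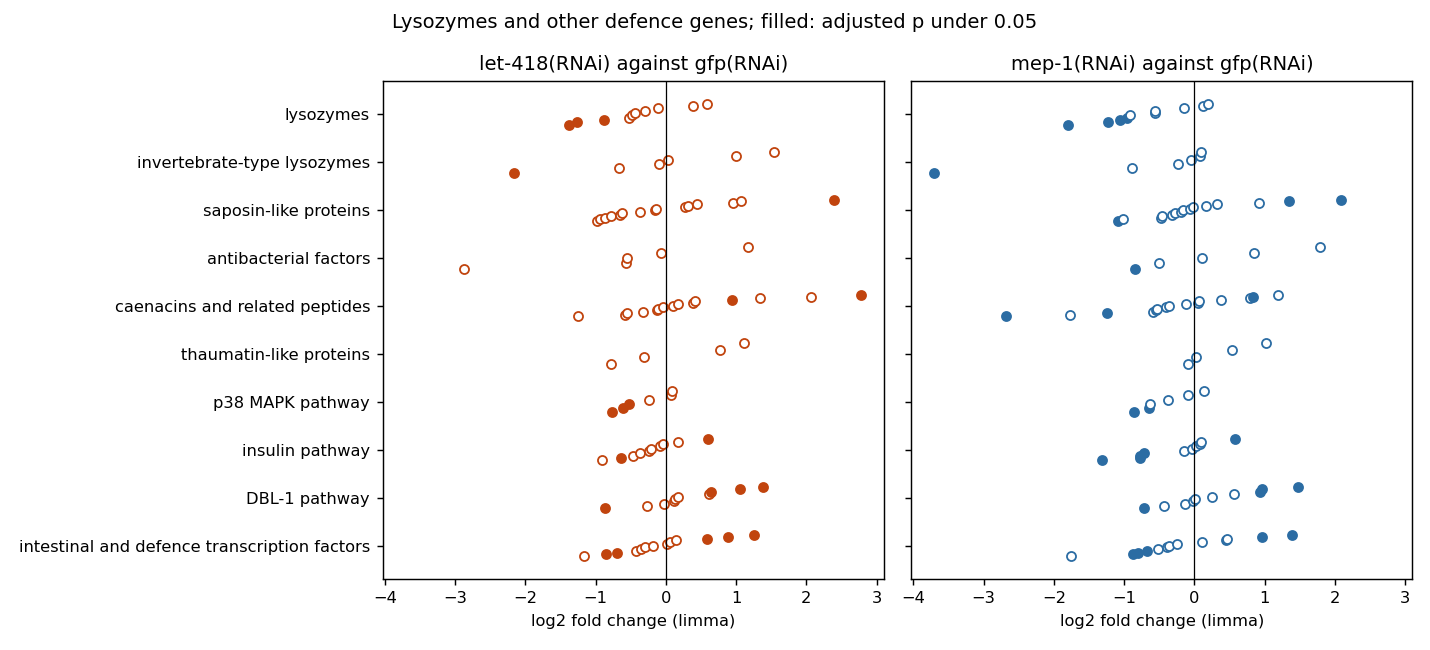
Log2 fold change of each measured gene of the *lys* family and of 9 other defence lists against *gfp(RNAi)*, for *let-418(RNAi)* (left) and *mep-1(RNAi)* (right), with 1 point per gene and filled points at an adjusted p under 0.05. The filled points of the *lys* genes, of the invertebrate-type lysozymes and of the p38 list lie to the left of 0 only, and those of the DBL-1 and insulin lists on both sides.

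Markers of the intestine, the tissue that makes most lysozymes, passed in both directions. Of 15 intestine marker genes, 2 passed as higher and 5 as lower on the *let-418(RNAi)* arrays and 2 and 2 on the *mep-1(RNAi)* arrays, beside the shares over all probe sets given above (medians 0.02 and -0.22). Their summed signal ran from 39344 to 50355 on the *let-418(RNAi)* arrays and from 43635 to 52603 on the *mep-1(RNAi)* arrays, against 45204 to 46908 on the *gfp(RNAi)* arrays, so that the groups overlapped. Sums weight the brightest probe sets, here *asp-1* (means of 14285, 15281 and 13835 in the same order) and *cpr-1*, which rose (0.67 with adjusted p = 0.0321, and 0.69 with 0.0274), so a fall of dimmer markers would hardly show in them. *ifb-2*, an intermediate filament gene of the gut lining, had log2 fold changes of 0.04 and 0.03, while the gut esterase gene *ges-1* fell in both (-0.67 with adjusted p = 0.0203, and -0.82 with 0.00623, limma). The metallothionein gene *mtl-2* fell by 2.46 for *let-418(RNAi)* (adjusted p = 0.0194, limma), from widely spread *gfp(RNAi)* signals of 2536, 1018 and 388. For *mep-1(RNAi)* it had -1.43 and did not pass (adjusted p = 0.147). The peptide transporter gene *pept-1* fell by 0.86 for *let-418(RNAi)* (adjusted p = 0.00389) and had -0.47 for *mep-1(RNAi)* (adjusted p = 0.0741).

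Markers of other tissues moved with the groups in part. The summed signal of 8 pharynx markers was 5479 to 5738 on the *let-418(RNAi)* arrays and 4723 to 6865 on the *mep-1(RNAi)* arrays, against 7045 to 10782 on the *gfp(RNAi)* arrays. Of these genes 1 and 3 passed as lower and 0 as higher, *myo-1* among them in both knockdowns (medians -0.42 and -0.66). This sum too weights the brightest probe sets, here *myo-1* and *myo-2*. The log2 fold changes of *phat-1* (0.71 and 0.85), *phat-2* (1.03 and 0.76) and *phat-3* (0.18 and 0.14) were above 0 and did not pass. The 8 germline markers summed to 3944 to 5510 and 5426 to 6018 on the *let-418(RNAi)* and *mep-1(RNAi)* arrays, against 799 to 859 on the *gfp(RNAi)* arrays, with 6 passing as higher in each and 0 as lower. The sums overlapped between each knockdown and *gfp(RNAi)* for body wall muscle (6 genes, 27891 to 33434 and 31421 to 34302, against 32619 to 34127), for hypodermis (8 genes, 34184 to 48738 and 34307 to 45831, against 20720 to 35721), and for neurons (8 genes, 13419 to 14450 and 12061 to 13970, against 13603 to 15412). Of these 3 lists 0 muscle, 1 hypodermis and 2 neuron genes passed on the *let-418(RNAi)* arrays, and 1 of each of the first 2 lists and 2 neuron genes on the *mep-1(RNAi)* arrays, the hypodermis gene higher and the others lower. The adult yolk protein genes, which mark the adult intestine, summed to 203 at most on any array over 5 genes, and 0 of them passed. The part that the shifts in the pharynx and germline sums have in the lysozyme values was not tested.

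**Figure D5:**
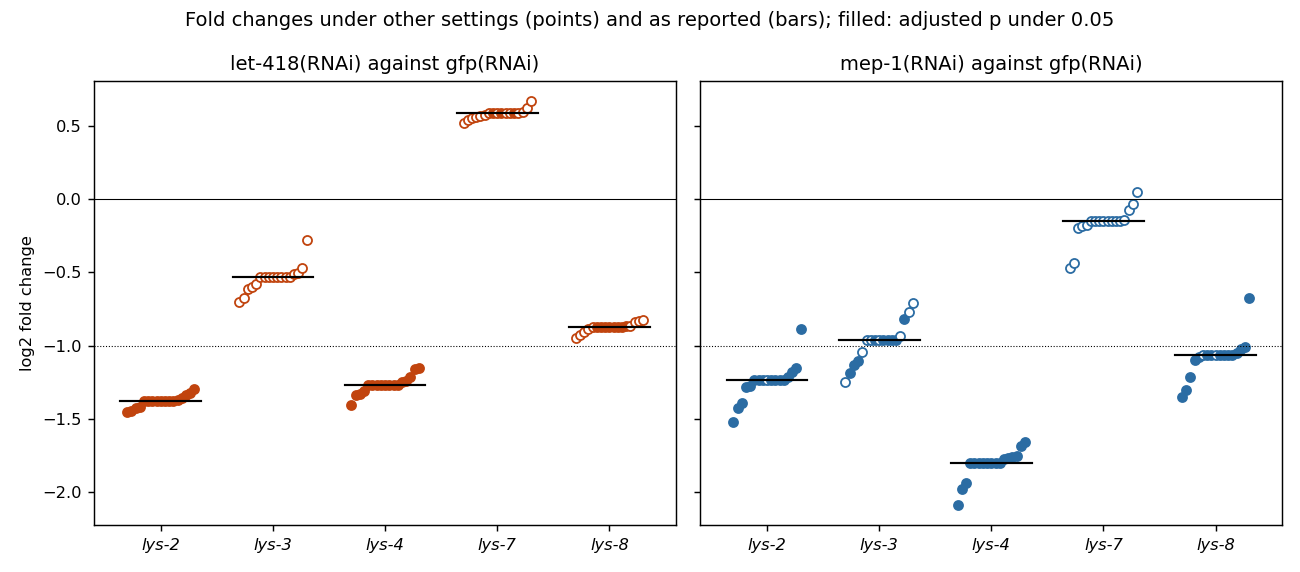
Log2 fold change of *lys-2*, *lys-3*, *lys-4*, *lys-7* and *lys-8* against *gfp(RNAi)* under each way of processing and with each array left out, filled where the adjusted p was under 0.05. *lys-2* and *lys-4* were below 0 under all of them, and *lys-7* on the *mep-1(RNAi)* arrays crossed 0, from -0.47 to 0.05 with 1 array left out.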

How the data were processed

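RNA of 9 L1 larval samples was hybridised to 1 array each. The authors summarised probe intensities with MAS5 to 1 linear signal intensity per probe set, which is the deposited value, with a global scaling of trimmed means named in the methods; the version of MAS5 and the target are not given in the sources used here. Since the deposited trimmed means differed, each array was multiplied by a factor (0.743 to 1.55) that brought its mean, after 2% was trimmed at each end, to 324. The labels placed all 9 columns of values, so 0 columns were left out.

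Log2 signals of all 22548 probe sets, with no offset, were fitted in limma 3.58.1 (R 4.3.3; lmFit with 3 group means over 9 arrays, eBayes with an intensity trend, 2-sided, Benjamini-Hochberg adjustment over all probe sets). Figures were drawn with matplotlib 3.10.9 in Python 3.11.15. Gene names came from the annotation of the platform, in which 20766 probe sets name 1 gene, 887 several and 895 none, and 20701 of the first were found in the RefSeq table of WBcel235. The brightest probe set naming a gene alone stood for it. The members, the gene lists and the tests were chosen with earlier results of these data known, and the lists come from general knowledge. Named are all 10 *lys* genes, the targeted genes, at most 4 of each list that passed with the largest change, and the 3 genes most like each called member. Lectin and chitinase genes were only counted. *pmk-1*, *daf-16*, *dbl-1*, *ilys-4*, *ifb-2*, *asp-1*, *cpr-1*, *myo-1*, *myo-2*, *phat-1*, *phat-2* and *phat-3* were added after their values were seen.

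The sample descriptions name the arrays of each group batch 1, 2 and 3, and the paper's methods call the batches independent; whether arrays of 1 number were handled together across groups is not stated, so the number was used as a block in an alternative only. Residual correlations of the 9 pairs with 1 number were -0.03 to 0.10 (mean 0.04), those of the 18 other pairs -0.14 to 0.10 (mean -0.02). The fit was tested on simulated data with known changes. Alternatives were quantile normalization, no scaling, an offset of 21.1, leaving out probe sets with a mean under 21.4, no trend, 6 arrays, the replicate block, the methods' t-test (Student's, on log2 signals), no fold limit and each array left out. No sequence of the genes or probes was used here.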

Additional observations from a re-analysis of the deposited data

Results flagged for a closer look

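*lys-5* passed in neither knockdown, but its arrays lay on opposite sides of the *gfp(RNAi)* mean in the 2 groups. All 3 *let-418(RNAi)* arrays lay above and all 3 *mep-1(RNAi)* arrays below the mean log2 signal of the *gfp(RNAi)* arrays, and the log2 difference, *mep-1(RNAi)* minus *let-418(RNAi)*, was -0.94 (standard error 0.41). The test of this difference in limma gave an unadjusted p of 0.0442 and an adjusted p of 0.874, so it did not pass. The signals of this gene, 10.8 to 46.4 on the 9 arrays, are near the 25th percentile of the arrays, and the probe set shared with *lys-6* had a difference of -0.996 (adjusted p = 0.889).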

How the results depend on the processing

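*lys-2* and *lys-4* were called for *let-418(RNAi)* under every alternative, with 2 lysozyme genes called throughout and 3 with no fold limit. For *mep-1(RNAi)*, where 3 were called, 5 were with quantile normalization (*lys-3* and *lys-10* in addition), 1 by the methods' t-test at p of at most 0.01 or after Benjamini-Hochberg adjustment (*lys-4*), 2 without the intensity trend and 2 to 4 with 1 array left out. The lowest, without *mep-1(RNAi)* replicate 3, held *lys-3* and *lys-4*. Between the knockdowns 0 were called, and 0 to 1 with 1 array left out. The replicate block changed no lysozyme call (2, 3 and 0). Probe sets called for *let-418(RNAi)* numbered 2096, against 1202 by the methods' t-test after adjustment, 3476 with no fold limit, 2112 with the replicate block and 1802 to 2168 with 1 array left out. For *mep-1(RNAi)* they numbered 2273, against 1515 and 1014 by the methods' t-test before and after adjustment, 3809 with no fold limit, 2296 with the replicate block and 1972 to 2289 with 1 array left out. Scaling moved the share of higher calls for *mep-1(RNAi)* to 58.2% (quantile) and 52.2% (unscaled), beside 67.3%, and the median of all log2 fold changes to -0.07 and -0.27, beside 0.02.

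Signs turned for values that had not passed. With unscaled signals *lys-1* and *lys-9* had -0.17 and -0.091 for *mep-1(RNAi)*, and *lys-2* -0.068 between the knockdowns. With 1 array left out, *lys-9* ran from -0.80 to 0.26 for *let-418(RNAi)*; for *mep-1(RNAi)*, *lys-1* ran from -0.025 to 0.25, *lys-7* from -0.47 to 0.050 and *lys-9* from -0.32 to 0.56; between the knockdowns, *lys-2* ran from -0.043 to 0.49, *lys-6* from -0.15 to 0.047, *lys-8* from -0.43 to 0.20 and *lys-9* from -0.068 to 0.88. The causes were not tested. Signals near the background of the array limit *lys-5*, *lys-6*, *lys-9* and *lys-10*.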
